A study of Mus musculus with 288 samples.

Results

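Scgb3a2-high and Scgb3a2-low club cells are the 2 ends of a ranking of single mouse lung cells by how much of their RNA is Scgb3a2, the transcript of a small secreted protein of the airway. Of 286 sorted wells, 227 held more than 10 times the counts of the fuller negative control, and 84 of these were taken as club cells. A club cell gave at least 10% of its counts to Scgb1a1, under 1% to Scgb3a1 and under 1% to Sftpc, the surfactant protein C gene of alveolar type 2 cells. The 84 cells were ranked by the Scgb3a2 share of their counts and divided into 28 Scgb3a2-high, 28 intermediate and 28 Scgb3a2-low cells, and 143 wells above the count limit did not meet the rule. The cells were selected on these 4 genes, so their values are a description and no result.

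Scgb3a2-high, intermediate and Scgb3a2-low cells share 1 genotype, Scgb1a1-CreER;Rosa26-mTmG, on C57BL/6, and an age of 4 months. CreER is a recombinase that a drug switches on, here under the Scgb1a1 promoter, and mTmG is a reporter that changes colour after recombination. Wells received 1 sorted cell that was Epcam+, CD45-, CD31-, CD24 low and lineage-labelled, or medium alone in the 2 negative controls. Because the Scgb1a1 promoter drives the recombinase, the lineage label itself selects cells that made Scgb1a1 at the time of labelling. No label names the animal of a cell. The 84 cells were therefore 1 sample, no p-value was made from cells, and each interval below is at 95%. Intervals of ratios and CPM cover counting error only. Intervals of shares of cells treat the cells as independent draws, which cells of unnamed animals need not be, and are no test between groups.

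Club cells are secretory cells of the small airways. They release secretoglobins, surfactant proteins and defence proteins, metabolise inhaled chemicals with cytochrome P450 enzymes, and can renew themselves and give rise to ciliated cells. Scgb3a2 and Scgb1a1 both encode secretoglobins, and in mouse lung both are known targets of NKX2-1, the transcription factor that marks lung epithelium. Scgb3a2 transcripts vary between club cells, and the question here was which other genes vary with them.

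Scgb3a2 took between 2.09% and 5.82% of the counts of Scgb3a2-high cells, with a median of 3.59%, and between 0% and 0.867% in Scgb3a2-low cells, with a median of 0.316%. Intermediate cells held 0.881% to 2.09%, with a median of 1.52%. The plot of shares by cell shows the ranking. The lowest Scgb3a2-high cell held 2.094% and the next cell down 2.086%. The last intermediate cell held 0.8811% and the first Scgb3a2-low cell 0.8669%. In all, 17 cells lay within 20% of the upper limit and 10 within 20% of the lower one. The limits follow from ranks, so the groups are ranges of 1 measure and are not called types.

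**Figure D1:**
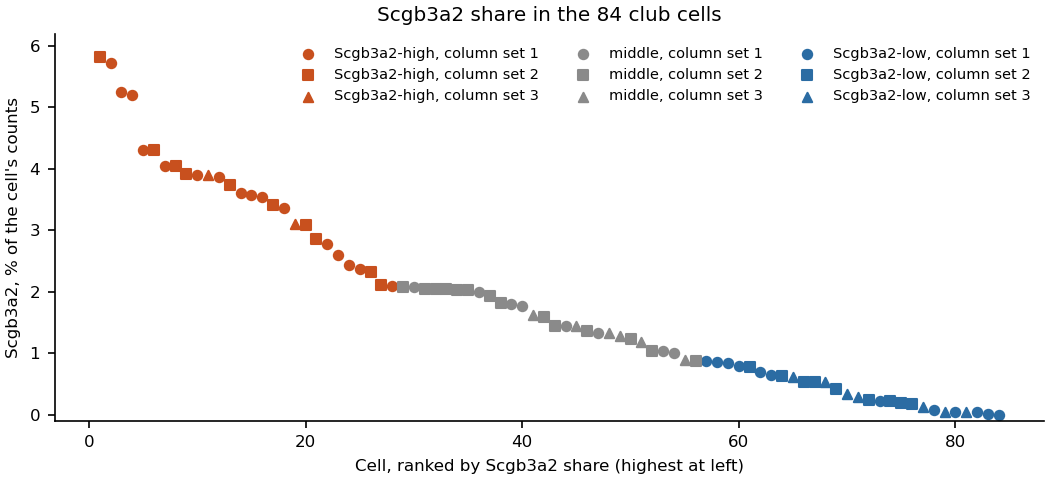
Scgb3a2 as a percent of each cell's counts (y axis) in the 84 club cells, ranked with the highest at the left (x axis). Colours give the Scgb3a2-high, intermediate (middle) and Scgb3a2-low cells, 28 each, and marker shapes the 3 successive sets of 96 columns of the table. Shares run from 5.82% to 0%, and the limits between groups are set by rank.

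The high and low cells were alike in depth. Totals had a median of 5448 counts in Scgb3a2-high cells (3634 to 9718) and 5286 in Scgb3a2-low cells (3373 to 8152), and medians of genes detected were 1468 and 1503. Scgb1a1 took a median of 32.0% of counts in Scgb3a2-high and 31.7% in Scgb3a2-low cells. The ribosomal RNA gene Rn45s took 8.35% in Scgb3a2-high and 8.80% in Scgb3a2-low cells. The 3 successive sets of 96 table columns were filled unevenly. They gave 16, 10 and 2 Scgb3a2-high cells and 12, 9 and 7 Scgb3a2-low cells. The labels name no plate or batch, so values within sets 1 and 2 are given for the main genes, with a side at 0 counts set to 3. Scgb3a1 had 109 counts in Scgb3a2-high cells, 63 of them in 1 cell that lay just under the 1% limit, and 7 counts in Scgb3a2-low cells. Sftpc had 45 and 49 counts.

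To compare the ends, counts were summed over the 28 cells of each and divided by the summed total without Scgb3a2 and given per 1000000 counts (CPM). A gene was measured if it had at least 20 counts over both ends. It is called higher or lower below if the ratio was at least 2-fold and the interval of the ratio left out 1. Of 1486 measured genes, 21 were higher in Scgb3a2-high cells (1.41%) and 52 were lower (3.5%), or 4.91% in either direction. With TMM scaling, which moved the median of all genes by 0.12, the counts were 39 higher and 30 lower. Without column set 3 they were 27 higher and 15 lower, of which 12 and 9 were among the 21 and 52, which turned the balance of directions. The median log2 ratio of all measured genes was -0.12, with 598 genes above 0 and 888 below. Most transcripts did not separate the ends by this rule.

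**Figure D2:**
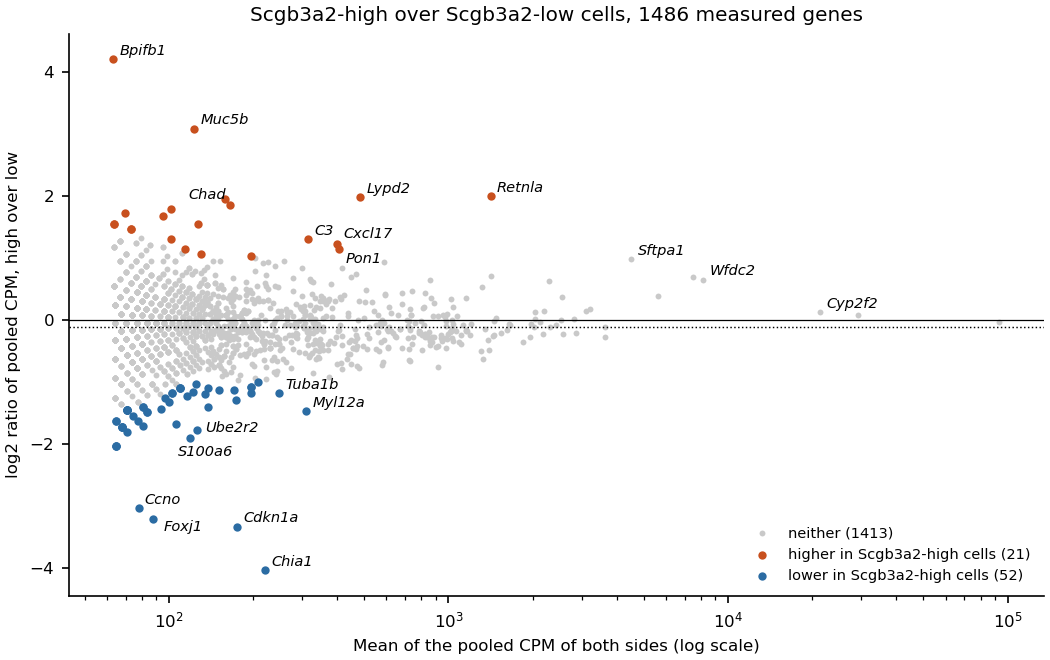
The log2 ratio of pooled CPM of Scgb3a2-high over Scgb3a2-low cells (y axis) against the mean pooled CPM of both ends (x axis, log scale) for 1486 measured genes. Orange points are the 21 genes called higher, blue points the 52 called lower, grey points neither, and the dotted line is the median of all genes at -0.12. Among the genes called higher, Retnla at 2264 and 565 CPM lies farthest to the right. Foxj1 and Ccno had 0 counts in Scgb3a2-high cells, which were set to 3.

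Several secreted proteins of the airway surface were higher in Scgb3a2-high cells. Of 32 listed genes for club secreted proteins 21 were measured, 7 were higher, against 1.41% of all genes, and 0 were lower. The median log2 ratio of the 21 was 0.93, with 19 of them above 0, against -0.12 for all genes. The list was drawn up with earlier results of these data known. It leaves out the chitinase Chia1, which was lower in Scgb3a2-high cells. Within column sets 1 and 2 the median of the list was 0.42 and 0.72. The 7 were Retnla, Lypd2, Chad, Cxcl17, C3, Muc5b and Bpifb1. Summed over the list, Scgb3a2-high cells held 16768 to 75483 CPM with a median of 43002, and Scgb3a2-low cells 13103 to 45773 with a median of 27469, so single cells of the ends overlapped widely.

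Retnla encodes resistin-like molecule alpha, a secreted protein of mouse airway epithelium and macrophages that type 2 cytokines induce. It was the gene most clearly higher. Single Scgb3a2-high cells held 0 to 7626 CPM with a median of 1494, and Scgb3a2-low cells 0 to 3583 CPM with a median of 157. Pooled, this was 359 counts or 2264 CPM (2036 to 2511) in Scgb3a2-high cells and 87 counts or 565 CPM (453 to 697) in Scgb3a2-low cells, a ratio of 4.01 (3.16 to 5.13). Intermediate cells lay between, at 1364 CPM. A count of Retnla was found in 26 of 28 Scgb3a2-high and 15 of 28 Scgb3a2-low cells. After thinning each cell to 4016 counts the shares were 88.5% of 26 cells (69.8 to 97.6%) and 50.0% of 24 cells (29.1 to 70.9%), by the exact Clopper-Pearson method. The log2 ratio was 2.07 within column set 1 and 1.57 within set 2. Neither negative control held a count of it.

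Retnla lies on chromosome 16 (48842551 to 48844461, plus strand, GENCODE M21 on GRCm38, the assembly that mm10 names). Of the 15 genes named for the highest ratios, the promoters of Retnla, Chad, C3 and Pon1 come first among those with an entry in the RefSeq table (build GRCm38.p6). The 250 bases before each start are shown because these genes were higher together, with capitals marking matches, on either strand, to the letters TTGCNNAA (C/EBP), TTC and GAA with any 4 bases between them (STAT6), CTCAAG (NKX2-1), TGTTTAC (FOXA) and TGANTCA (AP-1). Their positions are chr16:48842359-48842608 (plus strand) for Retnla, chr11:94564797-94565046 (plus) for Chad, chr17:57228137-57228386 (minus) for C3 and chr6:5193947-5194196 (minus) for Pon1.
Retnla: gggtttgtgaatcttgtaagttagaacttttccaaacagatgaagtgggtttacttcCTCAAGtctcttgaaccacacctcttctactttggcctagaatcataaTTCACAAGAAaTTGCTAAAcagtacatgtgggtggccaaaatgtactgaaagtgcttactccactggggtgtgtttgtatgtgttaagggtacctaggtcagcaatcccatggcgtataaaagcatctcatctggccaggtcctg
Chad: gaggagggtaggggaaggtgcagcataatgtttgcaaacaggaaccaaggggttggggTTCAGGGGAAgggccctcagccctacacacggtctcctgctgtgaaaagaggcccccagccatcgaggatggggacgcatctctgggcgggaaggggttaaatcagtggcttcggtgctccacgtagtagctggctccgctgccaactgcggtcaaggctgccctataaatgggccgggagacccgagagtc
C3: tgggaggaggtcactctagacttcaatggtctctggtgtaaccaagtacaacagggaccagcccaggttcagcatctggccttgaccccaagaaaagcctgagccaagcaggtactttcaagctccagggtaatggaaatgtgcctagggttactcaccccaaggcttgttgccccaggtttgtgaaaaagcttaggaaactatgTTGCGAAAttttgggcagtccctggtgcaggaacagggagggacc
Pon1: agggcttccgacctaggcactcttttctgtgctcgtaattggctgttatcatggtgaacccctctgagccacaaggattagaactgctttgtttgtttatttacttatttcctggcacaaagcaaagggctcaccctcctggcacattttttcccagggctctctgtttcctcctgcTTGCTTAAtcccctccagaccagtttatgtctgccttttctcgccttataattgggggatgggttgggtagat
In Retnla the STAT6 letters lie 145 to 136 bases before the start and the C/EBP letters 134 to 127 bases before it, with the NKX2-1 letters at 193 to 188. In Chad the STAT6 letters lie 192 to 183 bases before the start. C3 and Pon1 hold the C/EBP letters at 45 to 38 and 73 to 66 bases before theirs. No match shown overlaps another.

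Such letters are common. Over the full windows of 300 bases in the table, which run 50 bases past the start, C/EBP letters stood in 10.8% of 32851 promoters and STAT6 letters in 6.95%. NKX2-1 letters stood in 15.9%, AP-1 letters in 7.81% and FOXA letters in 3.65%. Of the 17 higher genes with an entry, 4 held the C/EBP letters, 5 the NKX2-1 letters, 3 the STAT6 letters, 1 the AP-1 letters and 0 the FOXA letters. Of the 43 lower genes with an entry, 3 held C/EBP, 2 NKX2-1, 4 STAT6, 4 AP-1 and 4 FOXA letters. A match describes the letters of the window only.

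Lypd2 (chromosome 15, 74732247 to 74734329, minus strand) encodes a small protein of the Ly6 family. Scgb3a2-high cells held 0 to 2201 CPM with a median of 429, and Scgb3a2-low cells 0 to 875 CPM with a median of 157. The pooled ratio was 3.95 (2.63 to 6.10), from 122 counts in 18 Scgb3a2-high cells and 30 counts in 15 Scgb3a2-low cells. Scgb3a2-high cells thus differed in the amount per cell more than in the number of cells with a count. Within column sets 1 and 2 the log2 ratio was 1.93 and 2.90, and in set 3, with 2 Scgb3a2-high cells, it was -0.31.

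Chad, the gene of the matrix protein chondroadherin, held 0 to 1408 CPM with a median of 163 in Scgb3a2-high cells and 0 to 369 CPM with a median of 0 in Scgb3a2-low cells. Its ratio was 3.62 (1.83 to 7.81), from 41 and 11 counts in 16 and 7 cells. The log2 ratio was 2.69 within column set 1 and 0.70 within set 2, and without set 1 the gene was no longer called, at 1.13.

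Further members act in defence at the mucosal surface. C3, the central complement component, had 71 counts in 24 Scgb3a2-high cells and 28 counts in 15 Scgb3a2-low cells, a ratio of 2.46 (1.57 to 3.96). Its cells held 0 to 1467 CPM with a median of 367 in Scgb3a2-high and 0 to 721 CPM with a median of 167 in Scgb3a2-low cells. C3 did not follow the ranking throughout, since intermediate cells held more of it than either end, at 567 CPM pooled against 448 in Scgb3a2-high and 182 in Scgb3a2-low cells. Without column set 1 the log2 ratio of C3 was 0.81 and the gene was not called. Cxcl17, a chemokine of mucosal tissues, had 89 and 37 counts and a ratio of 2.34 (1.58 to 3.53), with log2 ratios of 1.01 and 1.14 within sets 1 and 2. When the upper and lower 42 cells were compared instead, C3 and Cxcl17 were not called, with log2 ratios of 0.50 and 0.47. Intermediate cells held 318 CPM of Cxcl17, between 561 in Scgb3a2-high and 240 in Scgb3a2-low cells.

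**Figure D3:**
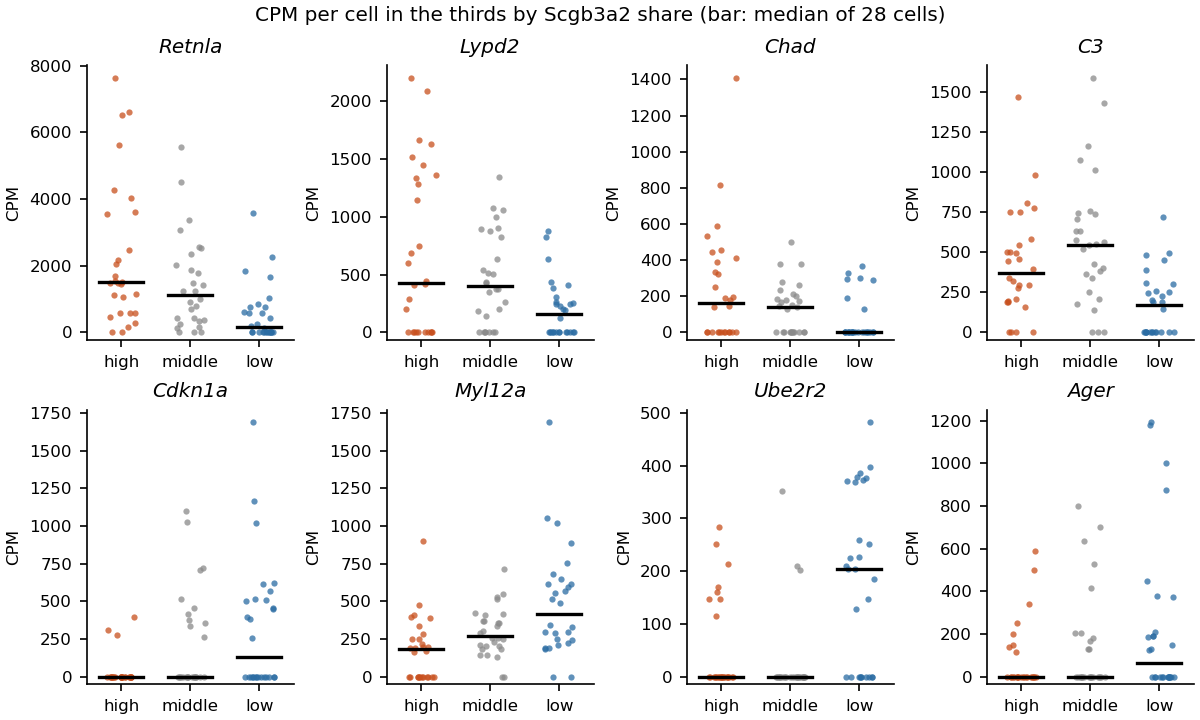
CPM per cell (y axes) of 8 genes in Scgb3a2-high, intermediate (middle) and Scgb3a2-low cells (x axes), 1 point per cell, with a bar at the median of 28 cells. In the upper row the medians of Retnla are 1494 and 157 CPM in Scgb3a2-high and Scgb3a2-low cells. In the lower row those of Myl12a are 180 and 414. Points of all 3 groups overlap in every panel.

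The gel-forming mucin Muc5b and the airway surface protein Bpifb1 were also called, and most of their counts came from 1 cell. Muc5b had 35 counts in 7 Scgb3a2-high cells and 4 counts in 1 Scgb3a2-low cell, a ratio of 8.50 (3.04 to 32.9), and 20 of the 35 lay in 1 cell. Bpifb1 had 19 counts and 1 count, with 16 of the 19 in the same cell. The cytochrome P450 gene Cyp2a5 followed this pattern, with 22 of its 23 Scgb3a2-high counts there and 7 counts in Scgb3a2-low cells. That cell held 5.20% Scgb3a2 and 0.876% Scgb3a1, the largest Scgb3a1 share among the 84 cells. Without the cell of most counts on each side Muc5b and Bpifb1 had too few counts to be measured, while the log2 ratio of Lypd2 was 2.06 and that of C3 was 1.36.

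The most abundant secreted transcripts lay above 1 in ratio but within 2-fold. Wfdc2, a protease inhibitor of airway secretions, held 9979 CPM in Scgb3a2-high, 8258 in intermediate and 6357 in Scgb3a2-low cells, a ratio of 1.57 (1.45 to 1.70) with 28 of 28 cells positive at both ends. Hp, the haptoglobin gene, held 9209, 7504 and 5715 CPM, a ratio of 1.61 (1.48 to 1.75). Sftpa1, surfactant protein A, held 5980, 3238 and 3033 CPM, a log2 ratio of 0.98. Sftpb had a ratio of 1.30 (1.18 to 1.43). Within column sets 1 and 2 its log2 ratio was -0.02 and 0.44, so it was level in set 1. Those of Wfdc2 were 0.42 and 0.74, and those of Hp 0.73 and 0.45. Over all sets the 2 listed genes with a log2 ratio below 0 were Cxcl15, a chemokine of lung epithelium, and Nupr1, a nuclear stress protein. Cxcl15 held 1533 CPM in Scgb3a2-high and 1708 CPM in Scgb3a2-low cells, and Nupr1 held 360 and 474 CPM. Sftpd, surfactant protein D, held 2309 and 2078 CPM. None of these 7 was called.

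Correlation per cell, on the same cells and therefore not independent, ranked genes without the 2-fold limit. Over the 84 cells and 615 genes found in at least 50% of them, the 10 genes most like Scgb3a2 by Spearman correlation of CPM with its share included Retnla (0.48), Wfdc2 (0.44), Hp (0.43), Por (0.41), Mgst1 (0.38), C3 (0.36), Sftpa1 (0.35), Pon1 (0.33) and Tmem176a (0.33). All genes ranged from -0.44 to 0.48 with a median of -0.02. Lowest were Rps19 at -0.44 and Myl12a at -0.43. For Retnla the value was 0.46 in 36 cells of column set 1, 0.44 in 33 of set 2 and 0.30 in 15 of set 3. Wfdc2 was as even, at 0.41, 0.46 and 0.39. Others varied more between sets 1, 2 and 3, with Sftpa1 at 0.50, 0.06 and 0.41 and Tmem176a at 0.07, 0.42 and 0.25. Pon1, at 0.32, 0.36 and -0.05, was the only one of these named genes below 0 in a set. These correlations describe the cells and share depth and library, and the Scgb3a2 share itself had 0.15 with total counts, -0.20 with the Rn45s share and 0.13 with that of Scgb1a1.

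Detoxifying enzymes are another hallmark of club cells. Cyp2f2, the main P450 of mouse club cells, held 22291 CPM in Scgb3a2-high and 20501 CPM in Scgb3a2-low cells, a ratio of 1.09 (1.04 to 1.14). Carbonyl reductase Cbr2 held 29961 and 28222 CPM, a ratio of 1.06 (1.02 to 1.11), and the retinal dehydrogenase Aldh1a1 held 3419 and 3020 CPM, a ratio of 1.13 (0.998 to 1.28). Within column sets 1 and 2 the log2 ratio was -0.16 and 0.12 for Cyp2f2 and -0.01 and -0.03 for Cbr2. Of 7 measured P450 system genes 1 was called, Cyp2a5 in the single cell above, against 4.91% of all genes, with a median of 0.17 on the log2 scale. Within sets 1 and 2 the median of this list was -0.20 from 6 genes and 0.12 from 5 genes. Of 28 glutathione and antioxidant genes 0 were called, at a median of -0.03. Among them Mgst1, a membrane glutathione transferase, had a ratio of 1.54 (1.33 to 1.80).

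Pon1 and Aldh3a1 were the 2 higher genes of 16 measured carbonyl, aldehyde, flavin and hydrolase enzymes, against 1.41% of all genes, in a list with a median log2 ratio of 0.19. Pon1 encodes paraoxonase, an esterase bound to lipoproteins. It held 0 to 1368 CPM with a median of 362 in Scgb3a2-high cells and 0 to 1681 CPM with a median of 0 in Scgb3a2-low cells, a ratio of 2.22 (1.51 to 3.32) from 89 and 39 counts. A count was found in 21 Scgb3a2-high and 13 Scgb3a2-low cells. Pon1 lost its call in 6 of 18 alternatives, with log2 ratios of 0.87 to 2.01 over all of them. Within sets 1 and 2 it stood at 0.75 and 1.66. Aldh3a1, an aldehyde dehydrogenase of surface epithelia, had 30 and 10 counts and a ratio of 2.91 (1.39 to 6.68), with log2 ratios of 1.80 and 0.70 within sets 1 and 2. Both had intermediate cells between the ends, at 349 and 125 CPM.

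The remaining genes named for a high ratio were Tpm4, a tropomyosin, B2m, the shared light chain of class I MHC, Mia, a secreted protein first known from melanoma, Gpi1 of glycolysis, the transmembrane collagen Col23a1, Ubxn1 and Mettl7a2. They had 17 to 42 counts in Scgb3a2-high cells and 5 to 20 in Scgb3a2-low cells, with ratios of 2.04 to 3.47. Within column sets 1 and 2 their log2 ratios were 0.75 to 2.22 and -0.04 to 1.90, with Mettl7a2 at -0.04 in set 2. Calls were lost in 8 of 18 alternatives for B2m, 7 of 18 for Gpi1, 5 of 17 for Col23a1, 5 of 16 for Mettl7a2, 2 of 15 for Tpm4, 2 of 11 for Ubxn1 and 0 of 9 for Mia. Intermediate cells held 137 CPM of Ubxn1, more than either end. Of the class I list 7 genes were measured and B2m alone was called. The heavy chain genes H2-K1 and H2-D1 had 31 and 36 counts in Scgb3a2-high cells against 27 and 37 in Scgb3a2-low cells. H2-K1 and H2-D1 are highly similar, as are genes of the Mettl7a family, so the split of reads between copies is uncertain. The class II gene Cd74 had 6 counts in Scgb3a2-high and 7 in Scgb3a2-low cells, and Ifitm3 of the interferon list had 24 and 13.

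On the other side, Cdkn1a was the gene most clearly lower in Scgb3a2-high cells among those spread over many cells. It lies on chromosome 17 (29090976 to 29100727, plus strand) and encodes p21, an inhibitor of cyclin-dependent kinases that stops the cell cycle under stress. Scgb3a2-high cells held 0 to 393 CPM with a median of 0, and Scgb3a2-low cells 0 to 1688 CPM with a median of 129. Pooled, 5 counts in 3 Scgb3a2-high cells stood against 49 counts in 14 Scgb3a2-low cells, a ratio of 0.0991 (0.0308 to 0.247), with intermediate cells between at 187 CPM. Of the 49 counts, 24 came from the 7 Scgb3a2-low cells of column set 3. Within sets 1 and 2 the counts were 2 against 15 and 3 against 10, and the log2 ratio was -3.28 and -2.04. After thinning, 7.69% of 26 Scgb3a2-high cells (0.946 to 25.1%) and 50.0% of 24 Scgb3a2-low cells (29.1 to 70.9%) held a count.

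Few cell cycle genes had enough counts to compare. Of 9 cell cycle genes 2 were measured. Ccnd1, cyclin D1, had 154 counts in Scgb3a2-high and 117 in Scgb3a2-low cells, and Pcna had 11 and 22, with neither called. Mki67 had 2 counts in Scgb3a2-high cells and 0 in Scgb3a2-low cells. Btg2 and Gadd45a, which like Cdkn1a respond to p53, had 55 and 12 counts in Scgb3a2-high cells and 45 and 8 in Scgb3a2-low cells.

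Among the 30 named genes those of actin, myosin and tubulin were called in both directions, with Tpm4 higher and those below lower, a grouping made after their values were seen. Myl12a, a regulatory light chain of nonmuscle myosin, held 0 to 903 CPM with a median of 180 in Scgb3a2-high cells and 0 to 1688 CPM with a median of 414 in Scgb3a2-low cells. It was found in 16 and 26 of 28 cells, with 26 and 70 counts, a ratio of 0.361 (0.221 to 0.573). Within column sets 1 and 2 its log2 ratio was -1.02 and -2.62. Compared over the upper and lower 42 cells, Myl12a was not called, at a log2 ratio of -0.94. Its near-identical copy Myl12b had 22 and 43 counts and was also lower, so the share of each is uncertain. Msn, which encodes moesin, a linker of actin to the membrane, had 8 and 25 counts, a ratio of 0.311 (0.121 to 0.711). Msn was level within set 1, with 5 and 4 counts, and 10 of its 25 counts in Scgb3a2-low cells came from set 3. Its call was lost without set 3 and after thinning, at log2 ratios of -1.35 and -0.96. Intermediate cells held 43.6 CPM of Msn, less than either end. Myo1c, an unconventional myosin, had 6 and 19 counts and log2 ratios of -1.11 and -1.30 within sets 1 and 2, and was not called without set 1. Tuba1b, an alpha tubulin, had 24 and 53 counts, of which 22 lay in 1 Scgb3a2-low cell that also held 8 counts of the cilia gene Foxj1. Its log2 ratio was 0.63 within column set 1 and -2.04 within set 2.

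Ube2r2, a ubiquitin-conjugating enzyme, was lower, with its counts spread over many cells. Scgb3a2-high cells held 0 to 283 CPM with a median of 0, and Scgb3a2-low cells 0 to 482 CPM with a median of 204. It had 9 counts in 8 Scgb3a2-high cells and 30 counts in 18 Scgb3a2-low cells, a ratio of 0.291 (0.122 to 0.630), with at most 3 counts in a cell and log2 ratios of -2.37 and -1.04 within column sets 1 and 2. Intermediate cells did not lie between, at 24.9 CPM against 56.8 in Scgb3a2-high and 195 in Scgb3a2-low cells. The Hsp90 partner Ptges3 had 16 and 38 counts, the catalytic calcineurin subunit Ppp3ca 19 and 42, the phosphatidate phosphatase Lpin2 4 and 16, the export pump Abcc3 4 and 16, and Mien1 4 and 16. Within sets 1 and 2 their log2 ratios were all below 0, from -3.30 to -0.30, and Ppp3ca, at -0.30 in set 2, lost its call in 5 of 18 alternatives. Hmga1b and Hmga1, near-identical copies of a chromatin protein gene, had 5 and 6 counts in Scgb3a2-high cells and 17 each in Scgb3a2-low cells, with Hmga1b at a log2 ratio of 0.05 within set 1 and -2.62 within set 2. Abcc3 and Hmga1b did not follow the ranking either. Intermediate cells held 149 CPM of Abcc3, more than either end, and 18.7 CPM of Hmga1b, less than either end.

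Chia1, the acidic mammalian chitinase, had the lowest ratio at 0.0607 (0.0161 to 0.163). It had 4 counts in 2 Scgb3a2-high cells and 64 counts in 8 Scgb3a2-low cells, of which 45 lay in 1 cell of column set 2. Within sets 1 and 2 its log2 ratio was -1.69 and -4.39. Without the cell of most counts on each side the log2 ratio of Chia1 was -4.29, from fewer counts. S100a6, a calcium-binding protein, had 8 and 29 counts, with 15 of the 29 in 1 Scgb3a2-low cell of column set 3, and within sets 1 and 2 its log2 ratio was -0.37 and -0.72. Intermediate cells held 31.1 CPM of S100a6, less than either end.

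Markers of other lung cells moved with the ends in part. Of 11 genes for alveolar type 1 (AT1) cells 5 were measured, and 2 were lower in Scgb3a2-high cells, against 3.5% of all genes. The list's median log2 ratio was -0.89, with -0.25 from 1 gene in column set 1 and -0.95 from 2 genes in set 2. Ager, the receptor for advanced glycation end products, had 12 counts in 8 Scgb3a2-high cells and 31 counts in 14 Scgb3a2-low cells, a ratio of 0.376 (0.176 to 0.753). Its log2 ratio was -0.78 and -1.44 within sets 1 and 2, and it lost its call in 4 of 18 alternatives. Clic5, a chloride channel protein, had 11 and 23 counts, and the water channel Aqp5, not called, had 20 and 36. Of the 5 measured genes 4 had a log2 ratio below 0 and 1 lay above, at 0.23. Summed over the list, Scgb3a2-high cells held 0 to 1503 CPM with a median of 520 and Scgb3a2-low cells 0 to 2983 CPM with a median of 798. Of the list, Cav1, Rtkn2 and Igfbp2 were at 0 at both ends. The whole list gave 92 counts in Scgb3a2-high and 151 in Scgb3a2-low cells. The part of AT1 transcripts in the results was not tested. Of 4 measured type 2 genes 0 were called, with a median log2 ratio of 0.34.

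Ciliated markers other than Sec14l3 lay in few cells. Foxj1, the master regulator of motile cilia, had 0 counts in Scgb3a2-high cells and 27 in 3 Scgb3a2-low cells. With the 0 set to 3 counts over the 28 cells Foxj1 was 9.27-fold lower, a value that depends on this setting and is no bound. The 3 Scgb3a2-low cells held 16, 8 and 3 of the counts. Ccno, a cyclin-like gene needed to multiply centrioles in ciliated cells, had 0 and 24 counts, in 4 Scgb3a2-low cells. The cell that held 16 of the 27 Foxj1 counts also held 15 of the 24 Ccno counts. Sec14l3, also on the ciliated list, had 332 counts in 26 Scgb3a2-high cells and 331 in 28 Scgb3a2-low cells, so it was found in nearly all cells here. When wells with 3 or more counts of the other ciliated markers were left out, 21 genes were higher and 36 lower, and Tuba1b was not called, at a log2 ratio of 0.0077. Goblet cell markers gave 63 counts in Scgb3a2-high and 12 in Scgb3a2-low cells, 35 and 4 of them from Muc5b, with Muc5ac at 0. Basal, neuroendocrine and tuft or ionocyte markers gave 3, 0 and 4 counts in Scgb3a2-high cells and 3, 2 and 1 in Scgb3a2-low cells. Endothelial and immune markers gave 3 and 2 counts in Scgb3a2-high cells and 6 and 2 in Scgb3a2-low cells, with Pecam1 and Ptprc at 0, and mesenchymal and erythroid markers 0 at both ends. Their part in the results was not tested.

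Transcription factors of lung epithelium set which of these genes a cell can use. Of 38 listed genes 13 were measured, 0 were higher and 1 was lower, against 3.5% lower among all genes, and the median log2 ratio was 0.03. The lower one was Nkx2-1 itself, with 12 counts in 9 Scgb3a2-high cells and 26 counts in 15 Scgb3a2-low cells, a ratio of 0.448 (0.206 to 0.920), and log2 ratios of -0.88 and -1.30 within sets 1 and 2. Intermediate cells were not between the ends, at 37.4 CPM against 75.7 in Scgb3a2-high and 169 in Scgb3a2-low cells, so Nkx2-1 did not follow the ranking, and it lost its call in 7 of 18 alternatives. Foxa1, a forkhead factor that acts with NKX2-1, had 14 and 6 counts and was not called. The C/EBP genes Cebpa and Cebpd had 11 and 23 counts in Scgb3a2-high cells and 9 and 19 in Scgb3a2-low cells. Among 5 measured Notch genes 0 were called, and Hes1 had 43 and 64 counts. Such counts leave wide intervals, as for the log2 ratio of Foxa1 at 1.18 (-0.29 to 2.85).

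Immediate early genes respond within minutes to stimuli and to tissue dissociation. Of 27 measured, 2 were lower, against 3.5% of all genes, and 0 higher, at a median log2 ratio of -0.31. Of these 27, 17 lay below 0, against 59.8% of all genes. Ier2 and Socs3, a feedback inhibitor of cytokine signalling, each had 20 counts in Scgb3a2-high and 41 in Scgb3a2-low cells, a ratio of 0.474 (0.263 to 0.827), and neither was called with TMM scaling or without set 1. Fos had 56 and 91 counts and Egr1 54 and 86, without a call, while Fosb had 119 and 110. Of 10 heat shock genes 0 were called, with a median of -0.15. Hsp90aa1 had 108 and 177 counts, a ratio of 0.593 (0.462 to 0.757), but 73 in intermediate cells.

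**Figure D4:**
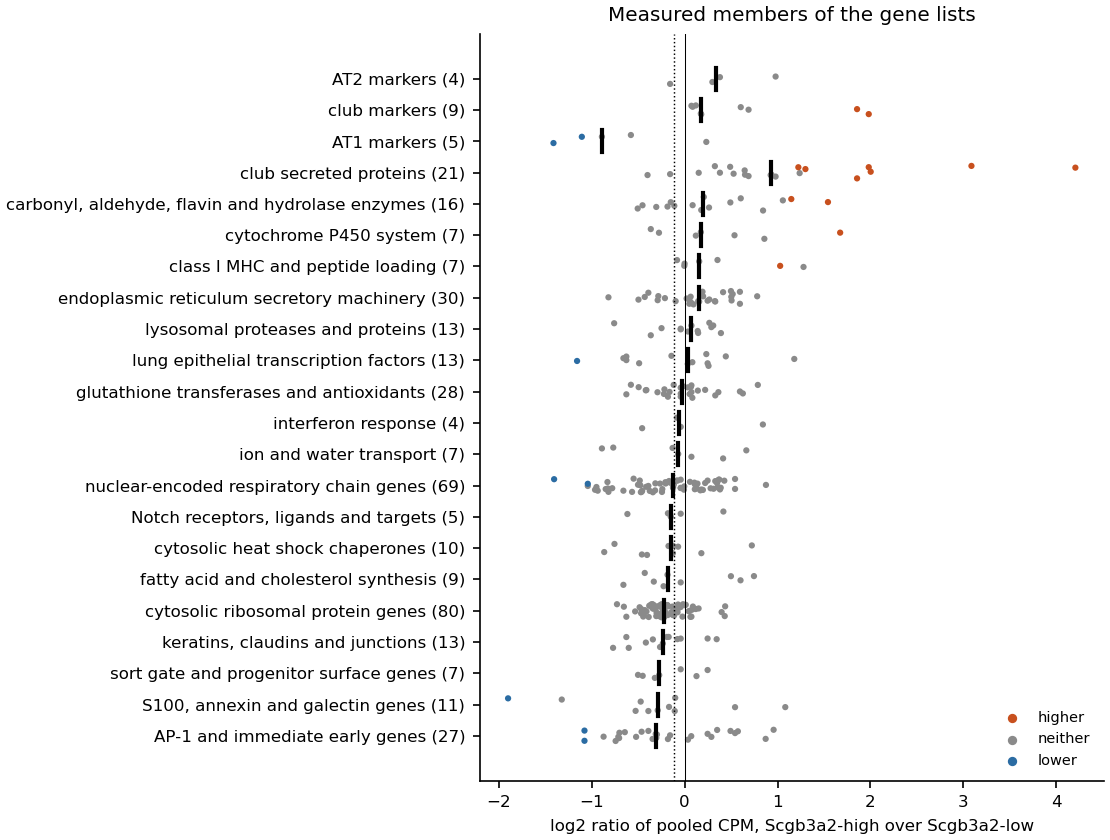
The log2 ratio of pooled CPM of Scgb3a2-high over Scgb3a2-low cells (x axis) for each measured member (points) of the gene and marker lists with at least 3 measured members (y axis, number measured in parentheses), coloured by call. Black bars are list medians and the dotted line the median of all genes at -0.12. The list of club secreted proteins has its median at 0.93 and AT1 markers have theirs at -0.89.

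Ribosomal and respiratory genes formed the largest lists. Of 80 measured cytosolic ribosomal protein genes 0 were called, and 67 lay below 0, with a median log2 ratio of -0.22 against -0.12 for all genes, of which 59.8% lay below 0. Within column sets 1 and 2 the median of the ribosomal list was -0.15 and -0.03. Summed over the list, Scgb3a2-high cells held 38483 to 103733 CPM with a median of 70447, and Scgb3a2-low cells 51533 to 137116 with a median of 77585. Of 69 nuclear-encoded respiratory chain genes 2 were called, both lower, against 3.5% of all genes, Ndufb8 (13 and 26 counts) and Ndufv2 (7 and 18 counts), with a median of -0.12. Neither was called with TMM scaling. Of 30 genes of the endoplasmic reticulum secretory machinery, which folds and exports secreted proteins, 0 were called and 22 lay above 0, with a median of 0.15. P4hb, a disulfide isomerase, had 107 counts in Scgb3a2-high and 78 in Scgb3a2-low cells.

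The other lists held 1 call. Keratin, claudin and junction genes (13 measured) and surface genes of the sort gate (7 measured) had medians of -0.23 and -0.27 with 0 called. Cd24a, on whose protein the cells were gated as low, had 61 counts in Scgb3a2-high and 81 in Scgb3a2-low cells, and Epcam had 14 at each end. Genes for lipid synthesis (9 measured), ion and water transport (7) and lysosomes (13) had medians of -0.18, -0.07 and 0.07 with 0 called. S100, annexin and galectin genes (11 measured) had S100a6 alone as lower and a median of -0.29. The interferon list (4 measured) had a median of -0.06. Uroplakin-marked variant club genes were under the count minimum, with 9 and 6 counts in all.

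The direction of the calls was compared between the column sets. Of the 21 higher genes, 19 had a ratio above 1 in both set 1 and set 2, and of 51 lower genes with counts in both sets 45 had a ratio below 1 in both. In set 3, with 2 Scgb3a2-high and 7 Scgb3a2-low cells, 17 of 19 higher genes and 19 of 52 lower genes kept the direction. There a gene at 0 in the 2 Scgb3a2-high cells was set to 3 counts, which alone can turn the ratio above 1. This takes from the lower genes that kept the direction and adds to the higher ones. Pon1, at 0 against 6 counts, Cyp2a5, at 0 against 3, and Col23a1, at 0 against 2, were so counted as higher in set 3. Cyp2a5 was also so counted in set 2, at 0 against 1. Without set 3 the number of lower genes was 15. Intermediate cells lay between the ends for 17 of the 21 higher genes and 35 of the 52 lower ones. The calls required a gap between the ends, so these counts are a description only.

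The same ranking was repeated in wells that the rule had left out. These were 72 wells with at least 10% Scgb1a1, under 1% Sftpc and at least 1% Scgb3a1, the secretoglobin of more proximal airway cells, of which the upper 24 by Scgb3a2 share were compared with the lower 24. Scgb3a2 took 5.08% to 8.57% in the upper cells, with a median of 6.01%, and 0.166% to 3.50% in the lower ones, with a median of 2.90%. Pooled, these ends lay 2.38-fold apart in Scgb3a2, against 10.2-fold in the club cells. Of 1561 measured genes 27 were higher (1.73%) and 42 lower (2.69%). Of the 21 higher genes 17 were measured in these wells, of which 0 were called higher and 9 had a ratio above 1. Cyp2a5, among these 17, was called lower there, with 74 and 145 counts, a ratio of 0.482 (0.359 to 0.642). Of the 52 lower genes 29 were measured, of which 2 were called lower, Brd2 and Hnrnpm, and 17 had a ratio below 1. Over all genes measured in these wells the shares were 1.73% higher and 2.69% lower. With 0 and 2 calls in the same direction as in the club cells, a difference from these shares was not tested.

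Retnla was level in these wells, with 212 counts in the upper and 200 in the lower cells, a ratio of 1.00 (0.822 to 1.22). Lypd2 and Chad were level too, with ratios of 1.08 (0.927 to 1.26) and 1.06 (0.859 to 1.31). They had 370 and 324 counts of Lypd2 and 192 and 171 counts of Chad. These intervals leave out the 2-fold difference of the rule. Level does not mean low here. Lypd2 held 2321 and 2150 CPM in these wells, against 770 and 195 in Scgb3a2-high and Scgb3a2-low club cells. Chad held 1204 and 1135 CPM, against 259 and 71.4. Retnla, at 1330 and 1327 CPM, lay between its club cell values of 2264 and 565. The 20 measured club secreted genes had a median log2 ratio of 0.11 with 1 higher. That gene was Sftpa1, with 1214 counts in the upper and 397 in the lower cells, a ratio of 2.89 (2.58 to 3.24), which in the club cells had 948 counts in Scgb3a2-high and 467 in Scgb3a2-low cells. Cdkn1a had 5 and 9 counts, too few to be measured. Whether the club cells and the Scgb3a1-holding wells differ in these ratios was not tested, since each is 1 sample.

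**Figure D5:**
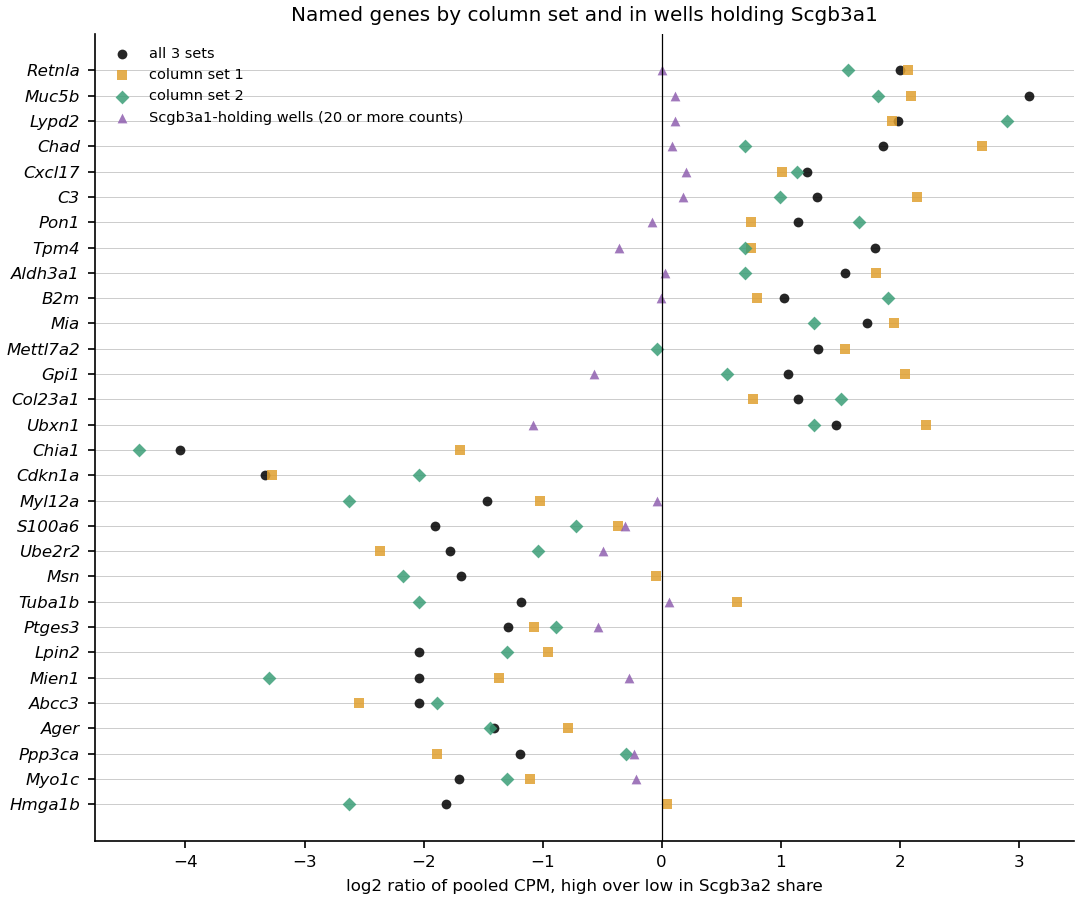
The log2 ratio of pooled CPM, high over low in Scgb3a2 share (x axis), of the 30 genes named for the highest and lowest ratios (y axis), in all club cells, within column sets 1 and 2, and in wells with at least 1% Scgb3a1 where a gene had 20 or more counts. A side at 0 counts was set to 3. Club cell values of the plotted genes of the club secreted list lie to the right of 0 in both sets. Chia1, a chitinase not on that list, lies at -1.69 and -4.39. In the Scgb3a1-holding wells Retnla is at 0.00 and Lypd2 at 0.11.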

How the data were processed

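The authors deposited raw counts, 1 table of 24781 gene symbols by 288 wells. Per the labels' protocols, RNA was primed with a molecular barcode and amplified after template switching. STAR and mm10 come from the submitters' processing notes. Counter, annotation, strand and any collapse of molecular barcodes: not given in the sources used here. If amplified copies were counted, intervals are too narrow. No spike-in rows were found in the table.

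Wells above 2340 counts, 10 times the fuller negative control (41 and 234 counts), were kept. No 2 wells were identical, and doublets were not called. Summed totals without Scgb3a2 were 158539 counts in Scgb3a2-high, 160580 in intermediate and 153993 in Scgb3a2-low cells, so 1 count is worth 6.31 CPM in Scgb3a2-high cells. Ratios have exact conditional binomial intervals, CPM exact Poisson intervals and shares Clopper-Pearson intervals, all at 95%, treating counts, and for shares cells, as independent. A count of 0 was set to 3 in a ratio. For shares, cells were thinned to 4016 counts, which left out 2 Scgb3a2-high and 4 Scgb3a2-low cells. With 1 sample no test across animals was possible.

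Named genes were the 15 highest and 15 lowest by the bound nearest 1, among called genes found in at least 25% of cells of the higher side. The 3 members of most counts in each list were added, as were all called members of a list with 5 or fewer calls. Other genes, among them Foxj1, Ccno and the uncalled members of lists, were chosen after their values were seen. Of the 10 genes whose CPM was most like the Scgb3a2 share by Spearman correlation, 1 is not reported here. The cells, lists and rules were chosen with earlier results of these data known. Python 3.11.15, numpy 2.4.6, pandas 2.3.3, scipy 1.17.1 and matplotlib 3.10.9 were used. TMM factors came from edgeR 4.0.16 as an alternative. Calculations were tested on simulated data. Of the measured symbols, 1475 matched GENCODE M21. The column sets follow the order of the table.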

Additional observations from a re-analysis of the deposited data

How the results depend on the processing

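In 12 of the 36 named genes with a call, among them Retnla, Lypd2, Cdkn1a and Ube2r2, the call held in every alternative where the gene was measured. Their log2 ratios ranged from 1.32 to 2.59 for Retnla, 1.03 to 2.42 for Lypd2, -4.25 to -1.59 for Cdkn1a and -2.63 to -1.56 for Ube2r2. Of 560 values of the 36 genes, 459 kept the call, 100 lost it and 1 turned, Tuba1b at 0.0077 without ciliated-marker wells. Among the 18 alternatives, the one without totals above 3 times the median left out none of the 84 cells. Its kept calls were therefore fixed in advance. The median of club secreted proteins ranged from 0.47 to 1.05. The number of higher genes, 21, was 33 with a total that also left out Scgb1a1 and Rn45s, 39 with TMM factors, 37 with ranking within column sets, 8 with a minimum of 50 counts, 63 with none and 44 at 1.5-fold. The number of lower genes, 52, was 30 with TMM factors, 24 after thinning, 30 without the cell of most counts on each side, 19 without the 3 cells of most counts (chosen after seeing the data), 10 with a minimum of 50 counts, 127 with none, 81 at 1.5-fold, 23 with at least 20% Scgb1a1 and 15 without column set 3. Fewer genes were measured with thinning (873), without 1 or 3 cells (1146 and 789) and without set 3 (1164). Beyond that the cause was not tested. Higher genes made up 28.8% of all calls, against 56.5% with TMM factors, 45.2% without Scgb1a1 and Rn45s in the total, 43.7% with median-of-ratios factors and 64.3% without set 3. TMM factors moved the median of all genes by 0.12, and leaving out set 3 by 0.13. The filter on the whole ciliated list was not run, since Sec14l3 left 10 wells, and the version without it was chosen after seeing the data. No paired analysis was possible because cells and negative controls share replicate numbers by name only. Depth limits rare genes: 20 counts over both ends are 64.0 CPM.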
